A study of Mus musculus with 4 samples.

Results

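The transcripts described here encode the nuclear pore proteins (nucleoporins), the importins and exportins that carry cargo through the pore, and the core of the Ran cycle. They were selected by a pattern of gene symbols, which uses no measured value itself, and number 50 of the 53379 genes in the deposited table. Of these, 24 encode nucleoporins, 23 encode transport receptors (6 importin alphas, 11 members of the importin beta family and 6 exportins) and 3 encode Ran and its direct regulators. RNA was recovered from lysates of the ventricular-subventricular zone (V-SVZ), a neurogenic tissue beside the lateral ventricles. The mice were wild-type, of strain CD1, aged 7 or 8 postnatal days. An antibody against Cpeb4, an RNA-binding protein of the cytoplasmic polyadenylation element-binding family, was compared with a control IgG. Each of 2 experiments gave 1 library per antibody, so there were 2 Cpeb4 and 2 IgG libraries, with no other treatment or allele. Neither pooling of tissue nor the use of different animals in each experiment is stated, and the p-values therefore reflect only how these libraries vary, which may be technical.

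The nuclear pore complex is a ring of stacked scaffolds set in the nuclear envelope, with a central channel of disordered phenylalanine-glycine repeats, filaments on the cytoplasmic side and a basket on the nuclear side. Import receptors bind cargo in the cytoplasm and release it in the nucleus when they meet Ran bound to GTP, while export receptors bind cargo together with Ran-GTP and release it when the GTP is hydrolysed. Importin alpha proteins are adaptors that read the classical nuclear localisation signal and link it to importin beta, and the alpha subtypes differ in cargo and are used at different stages of neural differentiation.

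Levels are FPKM (fragments per kilobase of gene, normalised for depth), a unit that allows genes to be compared within a library, and the libraries held 22486721 to 35037171 reads on genes. Changes are log2 ratios of Cpeb4 over IgG (log2 fold changes) of FPKM + 1, a scale on which differences of scarce transcripts look smaller than they are. They are printed ± SE and were tested with limma across 15745 genes at a Benjamini-Hochberg adjusted p under 0.05. Each SE rests mostly on the spread of genes of like level (14.6 prior against 1 residual degree of freedom). It is therefore not the gene's own spread between experiments. An amount in a precipitate measures what the antibody recovered, and in bulk tissue fewer cells of a type and less RNA per cell cannot be told apart. All listed markers of V-SVZ lineages (6 neural stem cell and astrocyte, 4 transit amplifying and 6 neuroblast genes) were at 1 FPKM or more in all 4 libraries. So were all 4 ependymal, 5 oligodendrocyte lineage, 4 microglial and 4 endothelial and mural markers, and 3 of 4 choroid plexus and blood markers. Summed marker levels differed between antibodies on the deposited FPKM scale. They were 932 to 963 FPKM in Cpeb4 and 536 to 568 in IgG for stem cells and astrocytes, 45.4 to 46.0 against 36.0 to 36.7 for transit amplifying cells and 383 to 398 against 292 to 293 for neuroblasts. For the oligodendrocyte lineage they were 416 to 441 against 288 to 298 FPKM, for microglia 126 to 128 against 102 to 108, and for endothelial and mural cells 64.5 to 65.5 against 44.7 to 45.5. The choroid plexus and blood sums were 69.0 to 77.7 against 63.6 to 68.3 FPKM, and the ependymal sums 41.5 to 49.0 against 57.5 to 59.0. The direction of such sums depends on how libraries are scaled. Scaling to read totals multiplies Cpeb4 levels by 0.875 and 0.804 and IgG levels by 1.19 and 1.19. With these factors several of the sums, the microglial one among them, would be lower with Cpeb4. Markers of 1 list could differ in direction. For microglia, P2ry12 was higher (log2 ratio 1.23) and Cx3cr1 lower (-1.02), with 2 of 4 not called, and for endothelial and mural cells Rgs5 was higher (0.96) and Kdr lower (-0.59), with 2 of 4 not called. The transit amplifying list had 2 higher, 1 lower and 1 not called. The stem cell and astrocyte list had 3 higher and 3 not called, with Slc1a3 alone at a mean of 484 against 242 FPKM. The neuroblast list had 4 higher and 2 not called, the oligodendrocyte lineage list 5 higher, and the ependymal list 2 lower and 2 not called. Of 3 tested choroid plexus and blood markers, 1 was lower and 2 were not called, though the list's deposited sum was higher with Cpeb4. The part of such differences in the results was not tested.

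Transcripts of several importin alphas, importin beta family members and exportins were higher in Cpeb4 immunoprecipitates, Kpna3 most of all, and a smaller number of nucleoporin transcripts were also called. Of the 50 members, 48 passed the filter on low values, and of these 25 were called higher, 3 lower and 20 neither. Among all genes tested, 38.8% were called higher and 11.6% lower. With a filter of 5 FPKM, 24 of 46 members and 5181 of 10100 genes were higher, shares close to each other. In the main fit the members' median log2 ratio was 0.39, against 0.19 for all genes tested. That distance of 0.20 was 0.08 without Cpeb4 replicate 2 (0.28 against 0.21) and 0.12 without IgG replicate 1 (0.31 against 0.19), and 0.07 with a filter of 5 FPKM. Without IgG replicate 1 there were 18 higher and 0 lower member calls, on a background of 26.5% and 5.98%. Without IgG replicate 2 there were 20 and 0, on a background of 25.3% and 5.51%. Without Cpeb4 replicate 1 there were 26 and 7, on a background of 41.5% and 15.9%, and without Cpeb4 replicate 2 there were 24 and 3, on a background of 41.4% and 11.9%. The higher calls comprised 15 of 22 transport receptors, 9 of 23 nucleoporins and Ran, and the lower ones the nucleoporins Aaas and Nup214 and the importin Ipo4. The nucleoporin share of higher calls, 39.1%, was close to that of all genes, while the receptor share was 68.2%. A difference of 2-fold or more was reached by 8 called members, all of them receptors, against 10.8% of all genes.

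**Figure D1:**
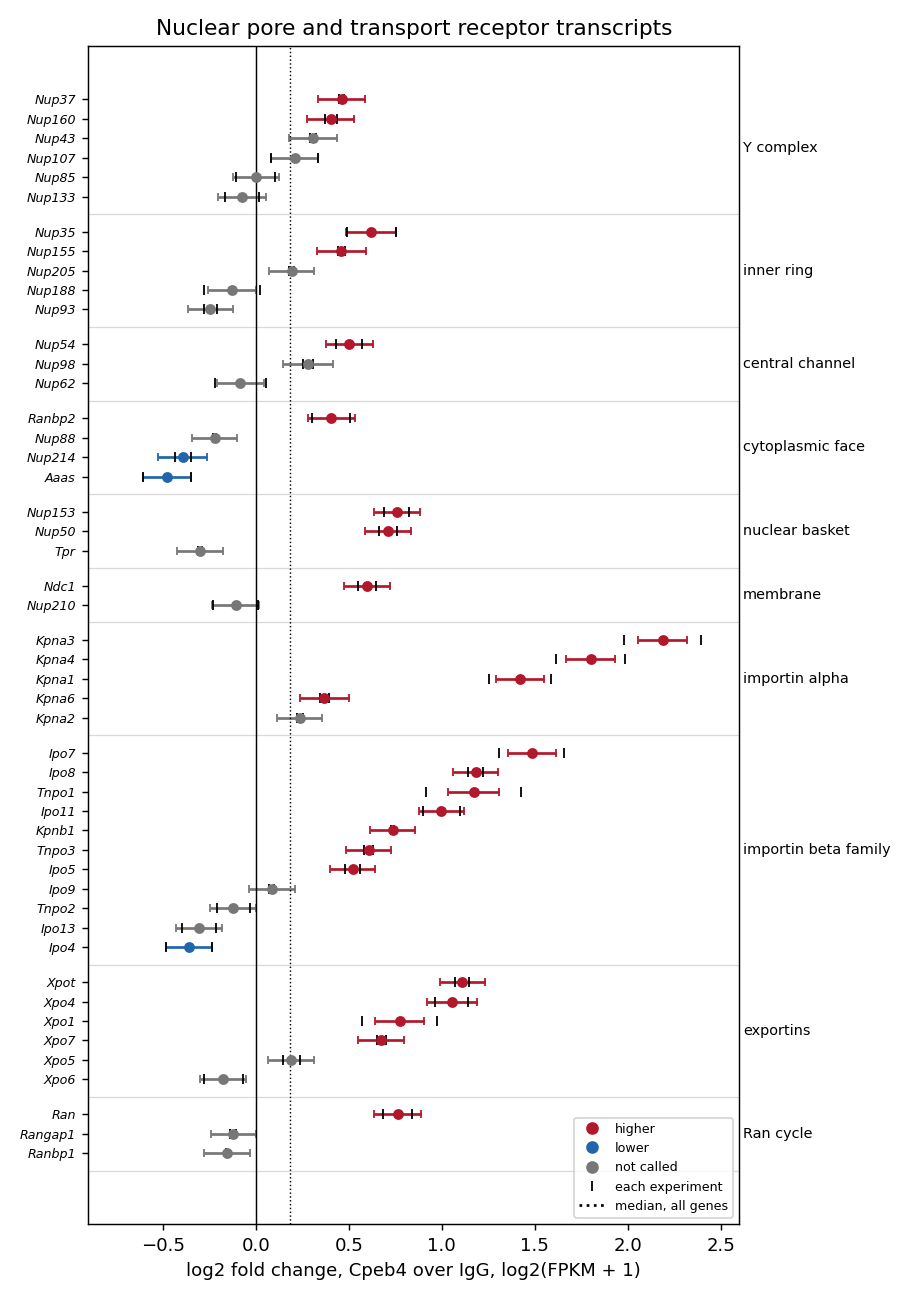
Log2 fold change of Cpeb4 over IgG (x axis, log2(FPKM + 1) scale) for the 48 tested members, grouped by role. Points with bars are the limma estimate and its SE, black ticks are experiments 1 and 2, and the dotted line is the median of all genes tested (0.19). Kpna3, Kpna4 and Ipo7 lie farthest to the right, followed by Kpna1, and no nucleoporin exceeds 0.76.

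The highest log2 ratios of the set were those of the importin alphas Kpna3 and Kpna4. Kpna3 (importin alpha-4), on chromosome 14 from 61365186 to 61439947 (GRCm38), was at 73.3 and 94.8 FPKM in experiments 1 and 2 with Cpeb4, and at 17.8 and 17.2 FPKM with IgG. Both Cpeb4 libraries stood far above both IgG libraries, with a mean of 84.1 ± 15.3 (SD, n = 2) against 17.5 ± 0.41 FPKM (n = 2). Its log2 ratio was 2.19 ± 0.13 (limma adjusted p 4.06e-08), a 4.56-fold difference on the FPKM + 1 scale that ranked 14 among the 15745 genes tested. Its closest paralog Kpna4 (importin alpha-3; chromosome 3, 69072221 to 69127092) was at 19.6 and 26.4 FPKM with Cpeb4 and 5.72 and 5.91 FPKM with IgG. Again the antibodies were well separated, at a log2 ratio of 1.80 ± 0.13 (limma adjusted p 5.98e-08) and rank 130. Kpna1 (importin alpha-5; chromosome 16, 35983288 to 36037136), the subtype linked to neural differentiation, was at 38.3 and 46.6 against 15.5 and 14.8 FPKM. Its log2 ratio was 1.42 ± 0.13 (limma adjusted p 2.82e-07), at rank 556.

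The other importin alphas behaved differently. Kpna6, the nearest relative of Kpna1 in the set, was at 5.17 and 6.32 FPKM with Cpeb4 and 3.87 and 4.56 FPKM with IgG. The ranges did not overlap but the gap was small, with a log2 ratio of 0.37 ± 0.13 (limma adjusted p 0.0281). That call was lost without Cpeb4 replicate 2 (limma adjusted p 0.123), without IgG replicate 1 (0.325) and without IgG replicate 2 (0.0985), as well as without the experiment block (limma adjusted p 0.0514). Kpna2, the subtype typical of proliferating and undifferentiated cells, was at 27.7 and 27.3 against 23.6 and 22.8 FPKM and was not called (log2 ratio 0.24 ± 0.12, limma adjusted p 0.117). It was called higher without Cpeb4 replicate 2 (limma adjusted p 0.0423). A Kpna2 pseudogene is listed in the table, so some of the reads may be shared. Kpna7, an oocyte and early embryo subtype, was scarce, with 17 and 10 reads in the Cpeb4 and 64 and 57 reads in the IgG libraries. Its 0.226 and 0.205 against 0.899 and 0.857 FPKM did not pass the filter on low values. In the authors' deposited table its log2 fold change was -2.03 with an adjusted p of 0.00757.

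Because a ratio of 2 genes in 1 library is not touched by how libraries are scaled, the composition of the importin alpha pool was also compared. Kpna3 made up 44.6% and 47.0% of the summed importin alpha FPKM in the Cpeb4 libraries and 26.4% and 26.0% in the IgG libraries. Kpna2 made up 16.9% and 13.5% with Cpeb4 and 35.0% and 34.4% with IgG. The most abundant importin alpha transcript was therefore Kpna3 in both Cpeb4 libraries and Kpna2 in both IgG libraries. The Kpna1 share hardly differed, at 23.3% and 23.1% against 23.0% and 22.4%. The summed level of the 6 genes was 164 and 202 FPKM with Cpeb4 and 67.4 and 66.2 FPKM with IgG.

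**Figure D2:**
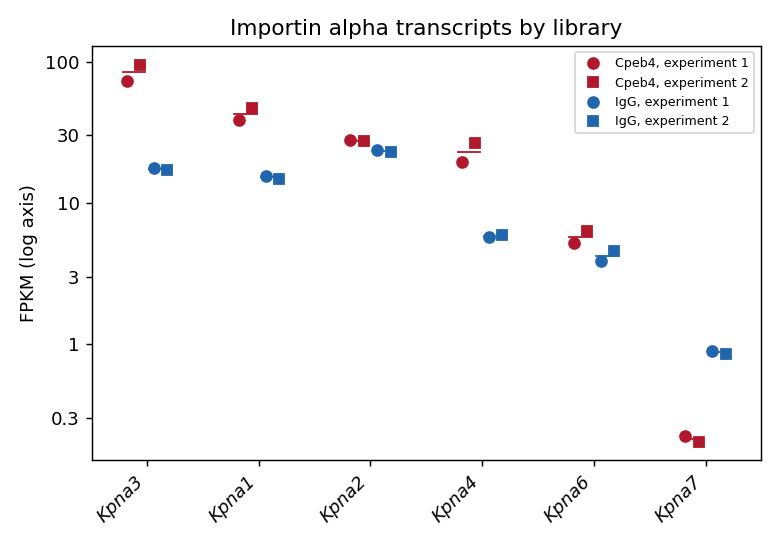
FPKM (log axis) of the 6 importin alpha transcripts in each library, with circles for experiment 1, squares for experiment 2, red for Cpeb4, blue for IgG and lines for group means. Kpna3, Kpna1 and Kpna4 are widely separated by antibody, Kpna2 and Kpna6 narrowly, and Kpna7 is below 1 FPKM in all 4 libraries.

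In the importin beta family, 7 of 11 members were higher, 1 was lower and 3 were not called. Kpnb1 (importin beta-1; chromosome 11, 97159710 to 97187892), the partner of every importin alpha, was at 29.6 and 31.7 FPKM with Cpeb4 and 17.2 and 18.7 FPKM with IgG. Its log2 ratio was 0.74 ± 0.12 (limma adjusted p 9.54e-05) was smaller than those of its adaptors Kpna3, Kpna4 and Kpna1. Ipo7 (chromosome 7, 110018315 to 110056609), an import receptor for ribosomal proteins and histone H1, was at 34.8 and 49.3 against 13.4 and 14.9 FPKM. It was the highest of the family at a log2 ratio of 1.48 ± 0.13 (limma adjusted p 1.93e-07). Its paralog Ipo8 (chromosome 6, 148770683 to 148832931) was at 16.7 and 20.0 against 7.04 and 8.01 FPKM, a log2 ratio of 1.18 ± 0.12 (limma adjusted p 1.01e-06).

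Transportins import RNA-binding proteins, and Tnpo1 and Tnpo2 are close paralogs that read the same type of signal. Tnpo1 (chromosome 13, 98839019 to 98926384) was at 25.0 and 38.3 FPKM with Cpeb4 and 12.8 and 13.6 FPKM with IgG, a log2 ratio of 1.17 ± 0.14 (limma adjusted p 3.36e-06). Tnpo2 was at 15.4 and 14.9 against 15.8 and 17.4 FPKM and was not called (log2 ratio -0.12 ± 0.12, limma adjusted p 0.439). Within a library Tnpo1 exceeded Tnpo2 1.62- and 2.58-fold with Cpeb4, and was at 0.811 and 0.784 of Tnpo2 with IgG. Tnpo3, the importer of SR splicing factors, was at 53.7 and 54.4 against 35.5 and 34.8 FPKM (log2 ratio 0.61 ± 0.12, limma adjusted p 0.000628). The higher calls also took in Ipo11 at a log2 ratio of 0.999 ± 0.12 and Ipo5 at 0.52 ± 0.12. The Ipo5 call was lost without IgG replicate 1 (limma adjusted p 0.0861).

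At the other end of the family was Ipo4, an importer of histones, at 13.2 and 10.9 FPKM with Cpeb4 and 15.8 and 15.6 FPKM with IgG. Both Cpeb4 libraries were below both IgG libraries, at a log2 ratio of -0.36 ± 0.13 (limma adjusted p 0.0257). The call was lost without Cpeb4 replicate 2 (limma adjusted p 0.0666), IgG replicate 1 (0.208) or IgG replicate 2 (0.191). Ipo13, which carries cargo in both directions, was at 28.7 and 24.8 against 33.4 and 32.9 FPKM (log2 ratio -0.31 ± 0.12, limma adjusted p 0.0501), and was called lower without Cpeb4 replicate 1 (limma adjusted p 0.00222). Ipo9 was the most abundant of the family in IgG, at 41.9 and 45.3 FPKM, and its 45.01 and 47.6 FPKM with Cpeb4 overlapped that range (log2 ratio 0.09 ± 0.12).

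Among the 6 exportins, 4 were higher, 0 lower and 2 not called. Xpo1 (CRM1; chromosome 11, 23255909 to 23297597), the receptor for leucine-rich nuclear export signals, was at 42.4 and 59.9 FPKM with Cpeb4 and 28.2 and 30.01 FPKM with IgG. Its Cpeb4 libraries differed from each other more than those of any other exportin (SD 12.4), and its log2 ratio of 0.77 ± 0.13 (limma adjusted p 0.000142). Xpot, the tRNA exporter (chromosome 10, 121587380 to 121626506), was at 34.8 and 36.9 against 16.0 and 16.1 FPKM, a log2 ratio of 1.11 ± 0.12 (limma adjusted p 1.68e-06). Xpo4 was at 6.73 and 7.93 against 2.96 and 3.05 FPKM (log2 ratio 1.05 ± 0.13, limma adjusted p 7.63e-06), and Xpo7 had a log2 ratio of 0.67 ± 0.12. Xpo5, the exporter of microRNA precursors, was at 13.5 and 13.2 against 11.3 and 11.8 FPKM (log2 ratio 0.19 ± 0.12, limma adjusted p 0.211). Xpo6, the exporter of actin, was at 24.6 and 21.9 against 25.8 and 26.8 FPKM (log2 ratio -0.17 ± 0.12, limma adjusted p 0.261), and was called lower without Cpeb4 replicate 1 (limma adjusted p 0.0344).

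**Figure D3:**
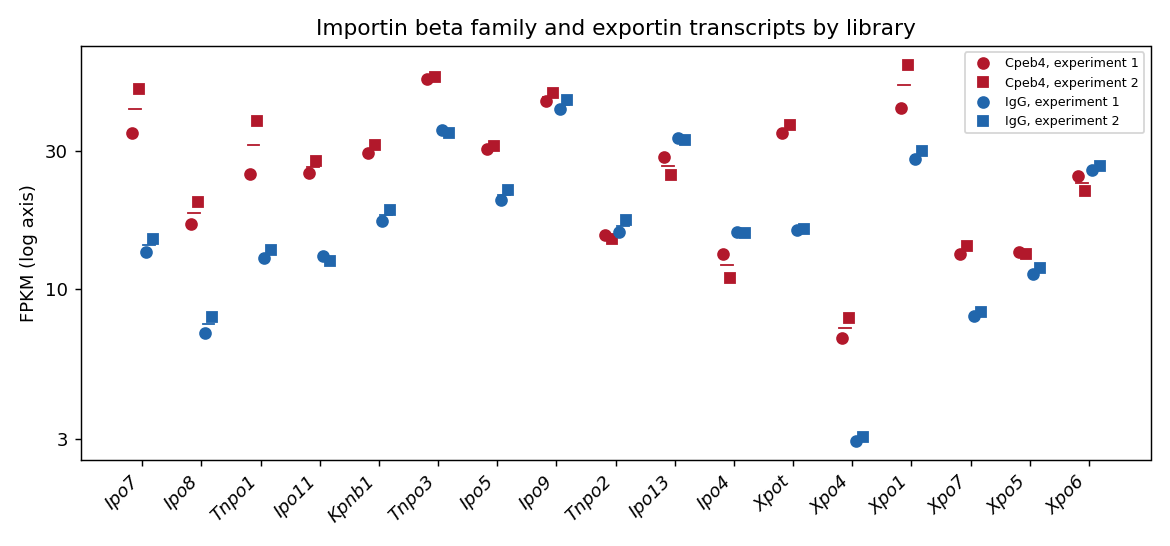
FPKM (log axis) of the 11 importin beta family members and 6 exportins in each library, each family ordered by log2 ratio, with symbols as in the plot of importin alphas. Ipo7, Ipo8, Tnpo1, Ipo11, Xpot and Xpo4 are clearly separated by antibody, while Tnpo2, Ipo13, Ipo4 and Xpo6 have both Cpeb4 libraries below both IgG libraries.

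The pore scaffold genes that the symbol rule took in showed small changes. Of 6 members of the Y complex, which forms the outer rings, 2 were called higher and 4 were not called. Nup37 was at 10.9 and 10.3 FPKM with Cpeb4 and 7.59 and 7.26 FPKM with IgG (log2 ratio 0.46 ± 0.12, limma adjusted p 0.00554). Nup133 was at 6.65 and 6.05 against 6.57 and 6.91 FPKM, with overlapping groups (log2 ratio -0.07 ± 0.13). The other called member was Nup160 at 0.40 ± 0.13, and Nup43, Nup107 and Nup85 lay between -0.07 and 0.40 and were not called. Without either IgG library the Nup37 and Nup160 calls were lost (limma adjusted p 0.067 and 0.102 for Nup37, 0.163 and 0.0992 for Nup160, without IgG replicates 1 and 2), and Nup43 was called higher without Cpeb4 replicate 2 (limma adjusted p 0.0205) and without the experiment block (limma adjusted p 0.0491).

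In the inner ring, which lines the pore wall, 2 of 5 members were higher and 0 lower. The membrane-binding Nup35 was at 6.10 and 6.69 against 4.05 and 3.57 FPKM (log2 ratio 0.62 ± 0.14, limma adjusted p 0.00116), and Nup155 had a log2 ratio of 0.46 ± 0.13 (limma adjusted p 0.00905). The large scaffold genes Nup205 and Nup188 were at 0.19 and -0.13. Nup93, which anchors the central channel proteins, was at 18.8 and 17.1 against 21.9 and 21.0 FPKM, with both Cpeb4 libraries below both IgG libraries (log2 ratio -0.24 ± 0.12, limma adjusted p 0.107). The Nup155 call was lost without Cpeb4 replicate 2 (limma adjusted p 0.0807) and without IgG replicate 1 (0.277), and Nup93 was called lower without Cpeb4 replicate 1 (limma adjusted p 0.0155).

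Central channel nucleoporins carry the repeats that receptors touch on their way through. Nup54 was at 10.4 and 11.2 FPKM with Cpeb4 and 7.43 and 7.23 FPKM with IgG (log2 ratio 0.50 ± 0.13, limma adjusted p 0.00324), a call lost without IgG replicate 1 (limma adjusted p 0.0546) or 2 (0.0723). Its binding partner Nup62 was at 18.2 and 14.6 against 17.5 and 17.1 FPKM, with overlapping groups and opposite signs in experiments 1 and 2 (0.05 and -0.22, fitted log2 ratio -0.08 ± 0.13). Nup98 was at 4.64 and 5.42 against 3.73 and 4.19 FPKM (log2 ratio 0.28 ± 0.13, limma adjusted p 0.0907), and was called higher without Cpeb4 replicate 1 (limma adjusted p 0.0221).

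At the cytoplasmic face 2 of 4 members were lower and 1 was higher. Aaas, which encodes aladin, was at 11.3 and 8.35 FPKM with Cpeb4 and 14.7 and 13.2 FPKM with IgG (chromosome 15, 102338247 to 102350759). This was the lowest log2 ratio of the 48 tested members, -0.48 ± 0.13 (limma adjusted p 0.00506). Nup214, the docking site for CRM1 and for mRNA export factors, was at 4.18 and 4.54 against 5.60 and 6.48 FPKM (log2 ratio -0.39 ± 0.13, limma adjusted p 0.0203). Its partner Nup88 was at 27.5 and 27.9 against 32.1 and 32.8 FPKM, lower in both Cpeb4 libraries but not called (log2 ratio -0.22 ± 0.12, limma adjusted p 0.143). Ranbp2, the giant filament protein that binds Ran and SUMO-modified RanGAP1, was at 7.79 and 10.5 against 6.12 and 7.06 FPKM (log2 ratio 0.41 ± 0.13, limma adjusted p 0.0146). That value is uncertain, since 12 Ranbp2 pseudogenes are listed in the table.

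The Aaas and Nup214 calls were lost without IgG replicate 1 (limma adjusted p 0.178 and 0.0728) and without IgG replicate 2 (0.0788 and 0.251). The Ranbp2 call was lost without Cpeb4 replicate 2 (limma adjusted p 0.141), without IgG replicate 1 (0.287) or 2 (0.103), and without the experiment block (limma adjusted p 0.0553).

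Among the nucleoporins that the symbol rule took in, the nuclear basket held the highest log2 ratios. Nup153 (chromosome 13, 46679902 to 46727849) was at 16.4 and 18.3 FPKM with Cpeb4 and 9.78 and 9.87 FPKM with IgG (log2 ratio 0.76 ± 0.12, limma adjusted p 8.65e-05). Nup50, which helps to release cargo from importin alpha, was at 13.0 and 12.7 against 7.85 and 7.08 FPKM (log2 ratio 0.71 ± 0.12, limma adjusted p 0.000166). Tpr, the coiled-coil protein that builds the basket, went the other way at 7.98 and 8.16 against 10.2 and 10.2 FPKM, and was not called (log2 ratio -0.30 ± 0.12, limma adjusted p 0.0538). Tpr was called lower without the experiment block (limma adjusted p 0.0373) and without Cpeb4 replicate 1 or 2 (limma adjusted p 0.0309 and 0.021). The ratio of Nup153 to Tpr in a library was 2.05 and 2.24 with Cpeb4 and 0.962 and 0.969 with IgG. Of the membrane nucleoporins, Ndc1 was at 12.6 and 12.9 against 7.66 and 8.50 FPKM (log2 ratio 0.60 ± 0.12, limma adjusted p 0.000764). Nup210 was at 11.4 and 11.02 against 11.3 and 13.1 FPKM (log2 ratio -0.11 ± 0.13). Nup210l, a mainly germline paralog, was below 0.5 FPKM in all libraries (35 to 73 reads) and was not tested.

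Of the Ran cycle genes, 1 of 3 was higher and 0 were lower. Ran, the GTPase itself (chromosome 5, 129020156 to 129024322), was the most abundant Cpeb4-recovered member on average, at 85.3 and 88.8 FPKM with Cpeb4 and 52.8 and 49.1 FPKM with IgG. Its log2 ratio was 0.76 ± 0.13 (limma adjusted p 0.000112). Its GTPase-activating protein Rangap1 was at 30.7 and 26.2 against 33.1 and 28.9 FPKM, with overlapping groups (log2 ratio -0.12 ± 0.12). The co-activator Ranbp1 was at 53.6 and 50.6 against 59.9 and 56.4 FPKM (log2 ratio -0.16 ± 0.12, limma adjusted p 0.315), with both Cpeb4 libraries lower but no call.

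Over the tested members, both Cpeb4 libraries stood above both IgG libraries for 31 genes, below for 10, and the groups overlapped for 7. For all genes tested these shares were 53.2% above and 22.7% below. With 2 libraries per antibody an exact two-sided permutation test of 1 gene cannot go below p = 0.333, so this separation carries no test of its own. Across the 48 members, ratios from experiment 1 correlated with those from experiment 2 at a Pearson r of 0.98, and across all genes at 0.87, both as descriptions of genes that share libraries.

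Ratios within a library were compared for 7 pairs of members. Of these, Kpna3 with Kpna2, Tnpo3 with Ipo13 and Nup153 with Tpr were chosen after their values were seen. Apart from the added 1 FPKM, such a ratio moves by the difference of the 2 log2 ratios, so the pairs restate those values. The ratio moved little for 2 pairs of paralogs. Kpna3 to Kpna4 was 3.74 and 3.60 with Cpeb4 against 3.11 and 2.92 with IgG, and Ipo7 to Ipo8 was 2.08 and 2.46 against 1.91 and 1.87. It moved more for the other pairs. Kpna1 to Kpna6 was 7.40 and 7.38 against 4.01 and 3.25, and Kpna3 to Kpna2 was 2.65 and 3.47 against 0.753 and 0.756. Tnpo3 to its relative Ipo13 was 1.87 and 2.20 against 1.06 and 1.06. The groups of ratios did not overlap for any of the 7 pairs, a separation that carries no test with 2 libraries per antibody.

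**Figure D4:**
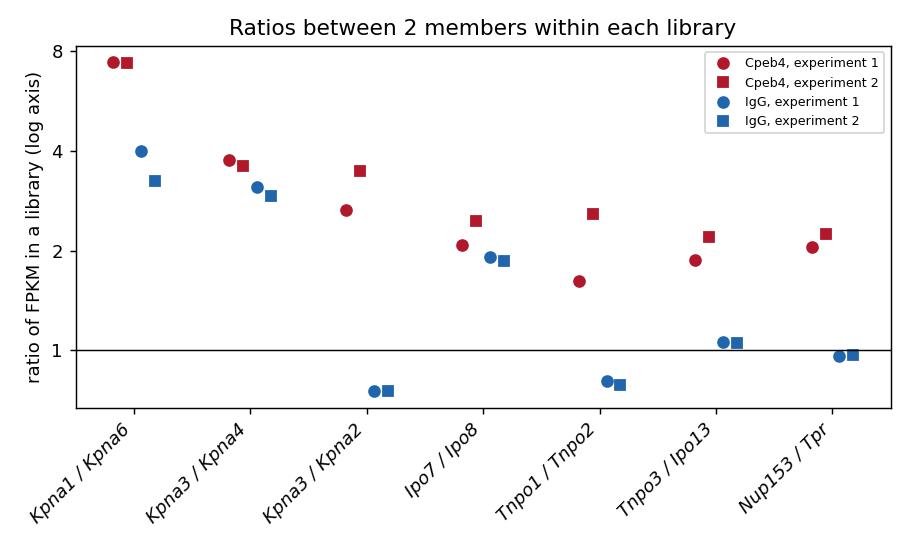
Ratio of FPKM between 2 members in the same library (log axis) for 7 pairs, with circles for experiment 1, squares for experiment 2, red for Cpeb4 and blue for IgG. Kpna3 / Kpna2, Tnpo1 / Tnpo2 and Nup153 / Tpr lie below 1 in both IgG libraries and above 1 in both Cpeb4 libraries.

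How far the members rose depended on the scaling of the libraries. The authors' scaling put the median log2 ratio of all genes at 0.19, and the trimmed mean, the median of tested genes, the upper quartile and read totals put it at -0.02, -0.11, -0.17 and -0.23. The members' median moved with it, from 0.39 to 0.17, 0.09, 0.02 and -0.05. Its distance from the median of all genes stayed between 0.18 and 0.20. A scaling of libraries shifts nearly all log2 ratios alike, so this distance could hardly change and its steadiness adds nothing. Higher calls fell from 25 to 18, 16, 14 and 9, and lower calls rose from 3 to 14, 15, 17 and 17. The backgrounds of higher calls in these 4 settings were 26.2%, 22.9%, 20.6% and 17.6%, and those of lower calls 23.3%, 30.8%, 37.2% and 41.5%. With limma-voom on the recovered reads 26 members were higher and 5 lower, on a background of 40.6% and 12.1%. Without the experiment block 24 were higher and 4 lower, on a background of 38.2% and 10.9%.

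The 9 members called higher under all 5 scalings were Kpna3, Kpna4, Kpna1, Ipo7, Ipo8, Tnpo1, Xpot, Xpo4 and Ipo11, all of them transport receptors, against 17.4% of all genes tested. Under read totals their log2 ratios ran from 0.52 for Ipo11 to 1.70 for Kpna3. These 9 were also called higher under each of the 10 other alternatives tried, including the one that removed the trend of fold change on gene length and level. Members called lower under all 5 scalings were Aaas, Nup214 and Ipo4, or 6.25% of those tested, against 11.6% of all genes. The other scalings all lower Cpeb4 against IgG, and each of the 1822 genes called lower with the authors' scaling was lower under all 5, so this persistence adds nothing to the first call. Xpo1, Ran, Nup153, Kpnb1 and Nup50 were higher under 4 scalings and lost their calls under read totals (limma adjusted p 0.0896, 0.118, 0.0745, 0.125 and 0.12). Xpo7 and Tnpo3 were higher under 3 scalings, and Nup35 and Ndc1 under 2. The authors' scaling was the only one under which Kpna6, Nup160, Ranbp2, Nup155, Nup37, Nup54 and Ipo5 were called higher. Lower under the 4 other scalings but not called under the authors' were Tnpo2, Ipo13, Xpo6, Nup62, Nup88, Nup93, Nup188, Nup210, Tpr, Rangap1 and Ranbp1. With Aaas, Nup214 and Ipo4, 14 of 48 members were lower under at least 4 scalings, against 3670 of the 15745 genes tested.

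**Figure D5:**
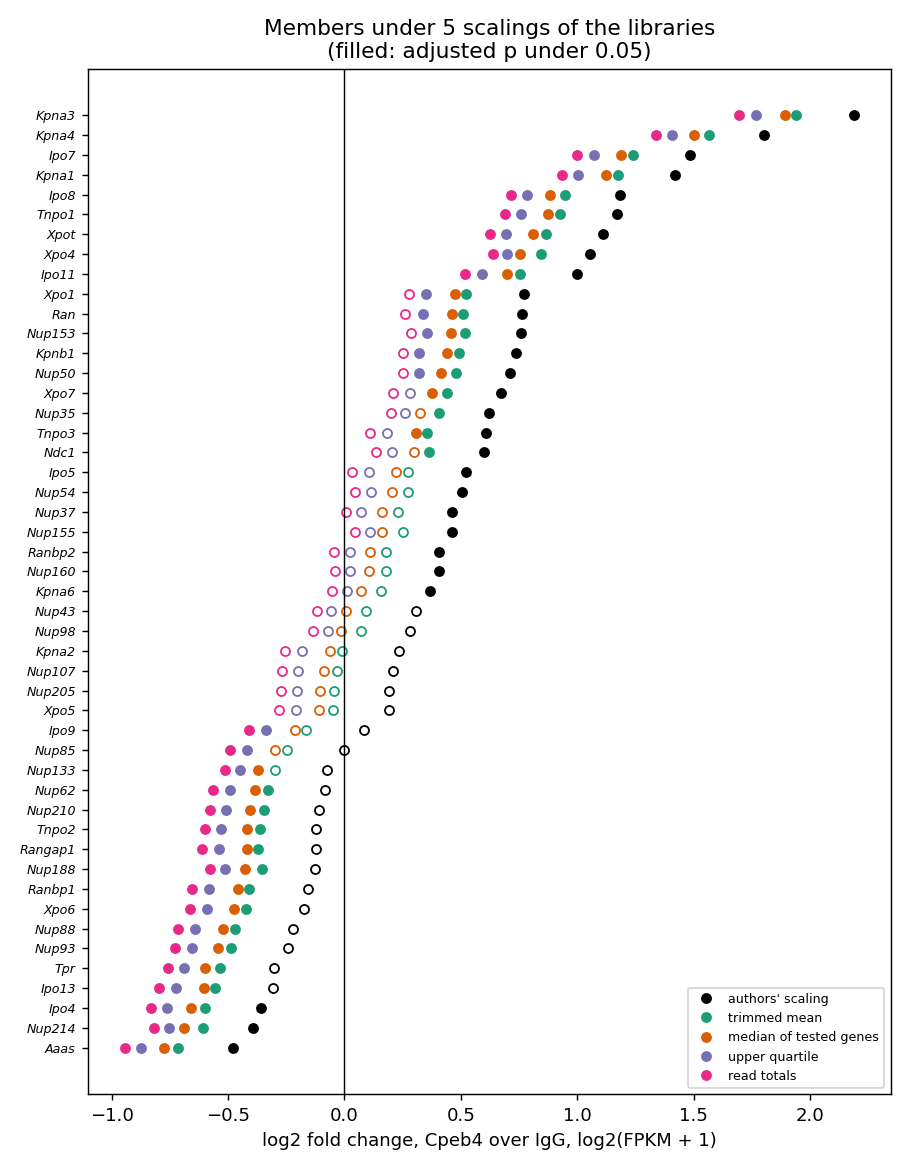
Log2 fold change of Cpeb4 over IgG for the 48 tested members under the authors' scaling (black) and 4 other scalings of the libraries, filled where the limma adjusted p was under 0.05. The 9 members from Kpna3 down to Ipo11 are filled and positive under all 5, and Ipo4, Nup214 and Aaas are filled and negative under all 5.

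Member transcripts were longer and more abundant than most. The median gene length implied by the deposited FPKM was 4.91 kb for members and 3.06 kb for all genes tested, and the median IgG level was 13.0 against 6.87 FPKM. Receptors and nucleoporins had median lengths of 5.70 and 4.75 kb. Across members the fold change had a Spearman correlation of 0.23 with implied length and 0.05 with mean level (n = 48 genes that share 4 libraries), against 0.30 and 0.32 across all genes. With the trend on length and level removed, the members' median was -0.03 and that of all genes -0.04, and 11 members were higher and 17 lower, with a background of 23.9% higher and 25.7% lower. Besides the 9 receptors, Nup35 and Nup37 were higher there (limma adjusted p 0.0149 and 0.0393). The calls of Xpo1, Kpnb1, Ran, Nup153, Nup50, Xpo7, Tnpo3 and Ndc1 were lost (limma adjusted p 0.575, 0.452, 0.11, 0.126, 0.0645, 0.208, 0.858 and 0.252), as were those of Nup160, Nup54, Ranbp2, Kpna6, Ipo5 and Nup155. When scarce genes were kept, which put 46911 genes in the adjustment, the calls of Nup37, Nup160, Nup54, Nup155, Ranbp2, Kpna6, Nup214, Aaas and Ipo4 were lost (limma adjusted p from 0.0516 for Nup54 to 0.129 for Ipo4).

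Other genes of nuclear transport were taken from 3 lists. Of 62 tested, 34 were higher, 5 lower and 23 not called, with a median log2 ratio of 0.35. These shares were 54.8% higher and 8.06% lower, beside 38.8% and 11.6% of all genes tested. Under all 5 scalings 14 were higher, beside 17.4% of all genes, and 10 were higher under the authors' scaling alone. Among importin-like receptors and Ran cofactors outside the symbol rule, 12 of 15 were higher, 2 of them under all 5 scalings, and 0 lower. The scaffold gene Ranbp9 had a log2 ratio of 1.23 ± 0.12, and Cse1l, the exportin that returns importin alpha to the cytoplasm, was at 0.87 ± 0.12. Of 22 further pore and nuclear envelope genes, 11 were higher, 8 of them under all 5 scalings, and 3 lower. The central channel nucleoporin Nupl1 (Nup58) was at 23.2 and 35.7 FPKM with Cpeb4 and 10.3 and 10.1 FPKM with IgG, a log2 ratio of 1.41 ± 0.15, above every nucleoporin the rule took in. The pore genes Seh1l and Pom121 were at 0.997 ± 0.12 and 0.82 ± 0.13, also above every nucleoporin the rule took in. Both were higher under all 5 scalings (limma adjusted p 5.42e-06 and 6.66e-05 with the authors' scaling). The envelope protein gene Tmpo was at 1.30 ± 0.13, while the giant linker genes Syne1 and Syne2 were lower at -1.19 ± 0.14 and -0.82 ± 0.13.

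Of 25 mRNA export genes, 11 were higher, 4 of them under all 5 scalings, and 2 lower. Nxt2, a cofactor of the export receptor family, was at 128 and 178 against 36.7 and 32.9 FPKM (log2 ratio 2.09 ± 0.15, limma adjusted p 5.67e-08), and the export adaptor Fyttd1 was at 1.85 ± 0.14. Nxf1, the main mRNA export receptor itself, was lower at -0.62 ± 0.12 (limma adjusted p 0.000566), and Sarnp at -0.79 ± 0.13. The higher genes Nxt2, Fyttd1, Ranbp9, Cse1l, Nupl1 and Tmpo kept their calls under all 5 scalings.

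In the authors' deposited table, which uses a count model, 23 of the 50 members passed an adjusted p of 0.05 upward and 3 downward. The shares there were 21.7% and 4.93% of the 22709 genes with an adjusted p. That is a wider set than the 15745 genes tested with limma, so these backgrounds are not like those above. The authors' deposited table gives Kpna3 the largest estimate of the members, 2.24 ± 0.16, followed by Kpna4 at 1.96 ± 0.17 and Ipo7 at 1.54 ± 0.16. Its lower members were Aaas, Nup214 and Kpna7, while Ipo4 was not called there (adjusted p of 0.0809 in the authors' deposited table). The gene spans of 10 members overlap another protein-coding gene in RefSeq, namely Tnpo1, Ipo11, Nup214, Tnpo3, Xpo7, Tpr, Nup43, Nup62, Nup88 and Nup98. Strand is not kept by the cDNA kit used, and reads in overlapping exons cannot be assigned to 1 gene.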

How the data were processed

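V-SVZ RNA from 2 Cpeb4 and 2 IgG immunoprecipitates was made into cDNA with a low input kit and Nextera XT libraries, per the labels' protocols. Per the submitters' processing notes, the tools were DESeq2 1.26.0, HTSeq 0.6.1p2, STAR 2.6.0c, Trim Galore 0.5.0 and FastQC 0.11.5 and the build mm10, with no roles given. Per the file headers, the authors deposited FPKM per library, and a comparison with a mean normalized signal, a log2 fold change with SE, a test score and p-values. The members and lists were chosen with earlier results of these data known.

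Reads per gene were rebuilt from the spacing of deposited FPKM values and the authors' mean signal (100% of values within 0.01 read), and served for depth, read totals and limma-voom. Genes with at least 1 FPKM in at least 2 libraries entered limma 3.58.1 in R 4.3.3 as log2(FPKM + 1), with a trended prior and experiment as a block (1 residual and 14.6 prior degrees of freedom), two-sided, with Benjamini-Hochberg adjustment over all 15745 genes. The code was tested on simulated data. The labels number the experiments across antibodies, but deviations of same-numbered libraries had a correlation of 0.002. Replicates were distinct libraries (chi-square per degree of freedom 20.2 for Cpeb4, 4.28 for IgG). Named by rule were the extremes of each role group, all of groups with 4 or fewer, the 6 highest and lowest called members, Ran, Kpnb1 and Xpo1, and 2 genes per direction of each further list. Members beyond these were named after their values were seen, to account for all 50. Seh1l and Pom121 were also named after their values were seen. Positions are from RefSeq GRCm38.p6, matched by symbol for 50 members. Alternatives were other scalings, filters of 5 FPKM or none, a pseudocount of 0.1, limma-voom, removal of a loess trend (span 0.5), no block and leaving out each library.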

Additional observations from a re-analysis of the deposited data

How the results depend on the processing

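Higher member calls numbered 9 with read totals, 14 with the upper quartile, 16 with median centring and 11 with the length and level trend removed, against 25, and 18 to 26 when 1 library was left out. Lower calls, 3 in the main analysis, numbered 17, 17, 15 and 17 in those settings, 14 with the trimmed mean, 0 without a filter, 5 with a filter of 5 FPKM, 5 with limma-voom, and 0 to 7 with 1 library left out. Among all genes, 875 of 46911 were lower without a filter and 937 of 10100 with a filter of 5 FPKM. The members' median was -0.0486, 0.0164, 0.0882 and -0.0310 in the first 4 settings and 0.17 with the trimmed mean, and 0.28 to 0.45 with 1 library left out. For the other transport genes, higher calls were 14, 16, 21 and 19 and lower calls 21, 18, 14 and 15 in the first 4 settings. Lower calls were 10 with the trimmed mean. With 1 library left out these genes gave 22 to 36 higher and 4 to 7 lower calls. The other scalings, whose factors come from these libraries, all lowered Cpeb4 against IgG. Fits with 1 library left out have no block, and take the spread from the complete pair, the lone sample being assumed to vary like it. The other causes were not tested.

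Without the experiment as a replicate block, 24 members were higher and 4 lower, with Ranbp2 and Kpna6 lost and Nup43 and Tpr gained.

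These log2 ratios changed sign. With read totals they were Nup160 -0.0423, Nup43 -0.118, Nup107 -0.268, Nup98 -0.134, Ranbp2 -0.0439, Xpo5 -0.28, Kpna6 -0.0533, Kpna2 -0.253, Ipo9 -0.411 and Nup205 -0.272. With the upper quartile they were Nup43 -0.0557, Nup107 -0.197, Nup98 -0.0718, Xpo5 -0.21, Kpna2 -0.18, Ipo9 -0.338 and Nup205 -0.203. With the trimmed mean they were Nup107 -0.0324, Xpo5 -0.0475, Kpna2 -0.0116, Ipo9 -0.166 and Nup205 -0.0426. With median centring they were Nup107 -0.0892, Nup98 -0.0167, Xpo5 -0.108, Kpna2 -0.0626, Ipo9 -0.213 and Nup205 -0.106. With the trend removed they were Nup107 -0.169, Nup98 -0.0318, Ranbp2 -0.0416, Xpo5 -0.206, Kpna2 -0.0834, Tnpo3 -0.0301, Ipo5 -0.0499, Ipo9 -0.624 and Nup205 -0.296. With 1 library left out, Nup85 ran from -0.152 to 0.151 and Nup62 from -0.234 to 0.0675. Tested members had 195 reads or more per library, and the number of libraries limits these values.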
